A study of Rattus norvegicus with 12 samples.

Results

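The genes described here carry, reduce, import and store iron in the rat choroid plexus, the secretory tissue in the brain ventricles that makes cerebrospinal fluid. A list of 9 genes was drawn up, TF, TFRC, FTH1, FTL1, CP, SLC40A1, SLC11A2, STEAP1 and STEAP2, and a gene was kept where the symbol tables of the study paired it with an Ensembl identifier of the deposited expression tables. This held for 6 of the 9 genes, out of 32883 genes in all, namely TF (ENSRNOG00000030625), FTH1 (ENSRNOG00000022619), FTL1 (ENSRNOG00000031506), SLC11A2 (ENSRNOG00000019550), STEAP1 (ENSRNOG00000000017) and STEAP2 (ENSRNOG00000006076). TFRC, CP and SLC40A1 had no pairing in the tables held here and were not analysed. Of the 6 genes, TF, FTH1, FTL1, STEAP1 and STEAP2 were paired in a table ranked by light-phase level. That table was not selected on a difference between phases, but its lowest light-phase mean was 51 TPM. Genes near this end enter it more easily when they are higher in the light phase. Of its 1997 genes 62.2% were lower in the dark phase, beside 52.5% of all tested genes. SLC11A2 was paired only in a table of genes that had been selected on the difference between phases, so its values are given as a description without a test. RNA was sequenced from whole choroid plexus of 12 male Sprague-Dawley rats, 9 weeks old and kept under alternating light and darkness, with 1 library per rat. The light-phase group of 6 rats was collected at ZT8, 8 h after lights on, and the dark-phase group of 6 rats at ZT20, 8 h after lights off. No treatment or genotype separated the groups, and all rats were anaesthetised before collection. Each rat was sampled at a single time point, so the data compare 2 time points and do not follow a rhythm.

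Iron circulates bound to transferrin, which enters cells by its receptor and releases ferric iron in acidified endosomes. Reductases of the STEAP family turn ferric into ferrous iron there, and the transporter SLC11A2, also called DMT1, moves it into the cytosol. Ferritin, a shell built of heavy and light chains, stores the iron that is not used, and the exporter ferroportin with the ferroxidase ceruloplasmin returns iron to the outside. In the brain, transferrin is made by the choroid plexus epithelium and by oligodendrocytes.

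Values are TPM, the share of a gene in all transcripts of a library, which is relative to transcript length and so can be compared between genes, given here after division by a scaling factor for each library. The read number behind a value is unknown, since neither TPM nor FPKM carries it. All 11 genes on a list of choroid plexus epithelial markers were paired, and TTR alone took 25.4% of all TPM in light replicate 2 and 28.7 to 31.0% in the other 11 libraries. Light replicate 2 also held the most transcripts of red blood cells. The summed level of the 4 paired haemoglobin genes, of 10 erythrocyte markers listed, was 28451 scaled TPM there and between 4250 and 11015 in the other 11 libraries. Its endothelial sum (2 of 8 markers paired) was the highest of the light phase at 133, against a light-phase median of 83.6 and a dark-phase range of 71.8 to 112, and its fibroblast sum (2 of 7 paired) was the lowest at 130, against a light-phase median of 198 and a dark-phase range of 144 to 225. The macrophage sum (2 of 10 paired) ranged from 342 to 540 in the light phase and from 391 to 507 in the dark phase. No neuron or astrocyte marker was paired, so these cells were not assessed. In whole tissue, fewer cells of a type and less RNA per cell cannot be told apart.

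The 6 genes spanned a wide range of levels. Together they took 0.577 to 0.778% of all TPM in the light phase (median 0.643%) and 0.562 to 0.755% in the dark phase (median 0.611%). TF, the iron carrier, was the most abundant and ranked 19 among all genes by mean level. FTH1, the ferritin heavy chain, which oxidises iron as it enters the shell, ranked 28, and TF was above FTH1 in 12 of 12 libraries by a median ratio of 1.75. STEAP1, of the metalloreductase family, ranked 1046, and FTH1 exceeded it by a median ratio of 22.2. FTL1, the ferritin light chain, which helps the iron core to form, ranked 1300. STEAP1 was above FTL1 in only 9 of 12 libraries, with ratios from 0.976 to 1.60, so the order of these neighbours was not the same in every rat. STEAP2, a metalloreductase of iron and copper, ranked 1783 and lay below FTL1 in 12 of 12 libraries. SLC11A2, the importer of ferrous iron, ranked 2891 and lay below STEAP2 in 12 of 12 libraries by a median ratio of 1.67.

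**Figure D1:**
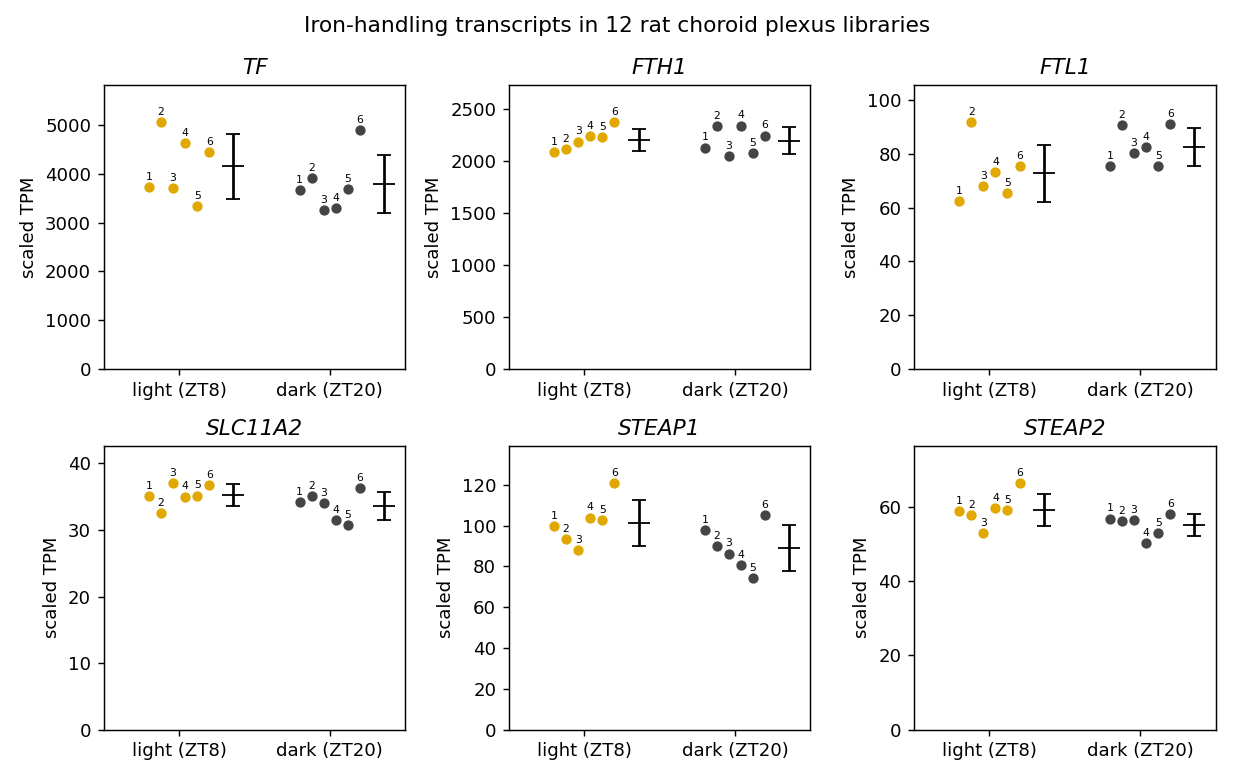
Scaled TPM of the 6 genes in each library, with light phase (ZT8) in yellow and dark phase (ZT20) in grey, replicate numbers above the points, and mean and SD of 6 rats beside them. The phases overlapped for every gene, and light replicate 2 stood above the other 5 light libraries for FTL1, at 91.8 scaled TPM.

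The sequence upstream of the start site is shown for the most abundant gene and for the STEAP pair, whose levels varied together between the light-phase rats. Each window holds the 250 bases before the annotated start, from RefSeq on the build GRCr8, at chr8:112695377-112695626 on the minus strand for TF, at chr4:29231559-29231808 on the plus strand for STEAP1 and at chr4:29303131-29303380 on the plus strand for STEAP2. Capitals mark the core of the metal response element, the motif of the zinc-sensing factor MTF1, written TGCACNC or TGCGCNC on either strand, and the TATA motif TATAAA.
TF: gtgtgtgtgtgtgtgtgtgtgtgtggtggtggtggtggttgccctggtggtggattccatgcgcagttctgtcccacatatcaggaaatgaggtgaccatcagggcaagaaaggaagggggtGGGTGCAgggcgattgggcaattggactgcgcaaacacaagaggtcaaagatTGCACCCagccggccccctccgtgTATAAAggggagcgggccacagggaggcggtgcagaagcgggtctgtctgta
STEAP1: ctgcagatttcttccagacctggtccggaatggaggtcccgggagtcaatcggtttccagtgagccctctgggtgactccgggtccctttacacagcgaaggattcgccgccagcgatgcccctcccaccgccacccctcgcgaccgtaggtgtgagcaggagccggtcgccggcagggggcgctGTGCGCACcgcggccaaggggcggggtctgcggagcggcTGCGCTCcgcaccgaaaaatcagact
STEAP2: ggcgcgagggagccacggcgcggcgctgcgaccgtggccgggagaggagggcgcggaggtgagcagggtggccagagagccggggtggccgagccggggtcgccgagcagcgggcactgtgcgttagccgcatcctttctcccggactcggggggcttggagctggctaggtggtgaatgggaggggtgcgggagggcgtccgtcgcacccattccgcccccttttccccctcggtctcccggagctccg

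The metal response element core was found 2 times in the TF window, 1 on each strand, and 3 times in the STEAP1 window, where matches on opposite strands overlap. It was found 0 times in the STEAP2 window and 0 times in the SLC11A2 windows, and 20.6% of 33469 windows of this length held at least 1 match. The TATA motif was found only in the TF window among these 4 genes, and 12.9% of all windows held it. The E-box CACGTG, to which CLOCK and BMAL1 bind, had 0 matches in the windows of the 4 genes, and the D-box TTATGNAA had 0 as well. They were found in 5.59% and 3.28% of all windows. A match in these letters is a description and not a bound site. STEAP1 and STEAP2 lie next to each other on chromosome 4 in this annotation, with 0 annotated genes between them.

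None of the 5 tested genes passed an FDR of 0.05 between phases in limma, where 17.7% of 12511 tested genes and 23.6% of the 1997 genes of the level-ranked table did. By direction, 0 of the 5 were called higher in the dark phase and 0 lower, beside 9.36% and 8.38% of all tested genes. At an unadjusted p below 0.05, FTL1 and STEAP1 passed, 2 of the 5, and this share was 30.8% over all tested genes and 38.4% over the level-ranked table. Log2 fold changes are given as dark minus light on the scale of log2(scaled TPM + 0.5). The median size of this change, regardless of sign, was 0.12 over all tested genes and 0.09 over the level-ranked table.

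TF showed the largest spread between rats of the abundant pair. In the light phase it ranged from 3342 to 5068 scaled TPM with a median of 4094, and in the dark phase from 3266 to 4897 with a median of 3681. The phases overlapped almost over their whole range, and the highest libraries were light replicate 2 and dark replicate 6. The means were 4157 ± 661 (SD, n = 6) in the light phase against 3792 ± 596 (SD, n = 6) in the dark phase. The log2 fold change was -0.13 (SE 0.12) and its 95% interval ran from -0.39 to 0.12, or -23.4 to 8.92% (limma, FDR = 0.488; two-sided exact permutation test, p = 0.333).

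FTH1 was nearly level between the phases. It ranged from 2082 to 2372 scaled TPM in the light phase, with a median of 2205, and from 2040 to 2337 in the dark phase, with a median of 2184. The ranges coincided almost fully. Means were 2201 ± 104.1 (SD, n = 6) and 2191 ± 131 (SD, n = 6), and the log2 fold change was -0.01 (SE 0.05; limma, FDR = 0.939; exact permutation test, p = 0.861). The 95% interval ran from -0.11 to 0.10, so a difference of up to 7.65% lower or 7.19% higher in the dark phase was left within it.

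FTL1 was higher in the dark phase by 13.5% on average, but did not pass the FDR. It ranged from 62.3 to 91.8 scaled TPM in the light phase, with a median of 70.5, and from 75.3 to 91.0 in the dark phase, with a median of 81.3. In the light phase 4 libraries lay below all dark libraries, while light replicate 2 lay above them all. Means were 72.7 ± 10.5 (SD, n = 6) and 82.5 ± 6.96 (SD, n = 6). The log2 fold change was 0.19 (SE 0.09; limma, unadjusted p = 0.0466, FDR = 0.155; exact permutation test, p = 0.0823). Without light replicate 2, the library with the high haemoglobin sum, the log2 fold change was 0.26 (SE 0.07) and passed the FDR (limma, FDR = 0.0180). Leaving out any other library gave no call, with log2 fold changes down to 0.15 and FDR up to 0.269 in limma. The part of blood in this library's ferritin light chain level was not tested.

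Since both ferritin chains build the same shell, their ratio was compared within each library, where the scaling cancels. FTH1 exceeded FTL1 by 23.0 to 34.1 times in the light phase, with a median of 31.8, and by 24.6 to 28.3 times in the dark phase, with a median of 26.6. In the light phase 5 libraries lay above all dark libraries, and light replicate 2 lay below them all. The means were 30.7 ± 4.02 (SD, n = 6) and 26.6 ± 1.55 (SD, n = 6), and the log2 difference was -0.20 (SE 0.09; two-sided exact permutation test, p = 0.0584). With each library left out in turn the difference ran from -0.28 to -0.17 (exact permutation tests, p from 0.00433 to 0.113). The lowest of these was without light replicate 2, and since that library lay below all dark libraries, its removal by itself separated the groups. Ferritin genes have near-identical copies elsewhere in genomes, and the authors' quantification divides shared reads between them, so the levels and the ratio of both chains are uncertain.

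**Figure D2:**
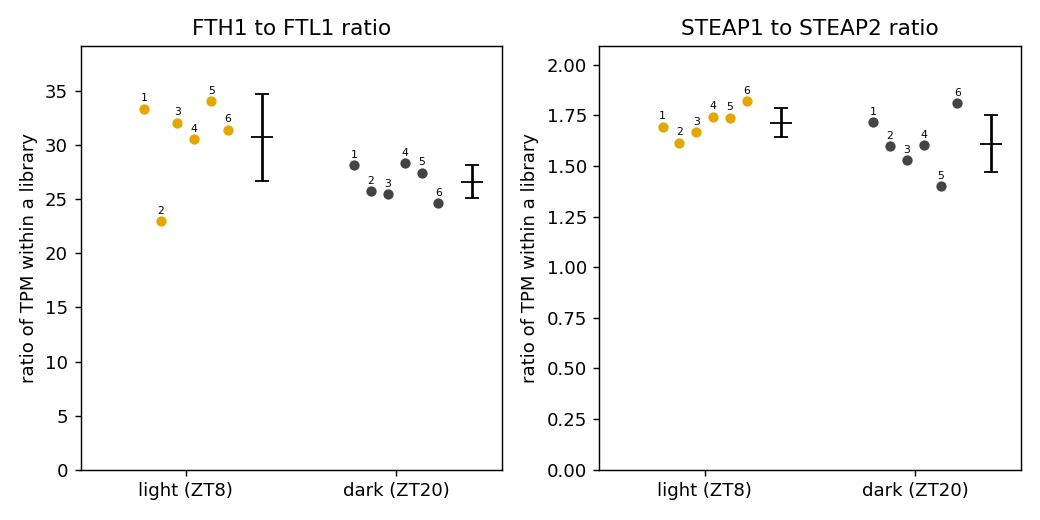
Ratio of FTH1 to FTL1 TPM and of STEAP1 to STEAP2 TPM within each library, by phase, with replicate numbers above the points and mean and SD of 6 rats beside them. For the ferritin chains, 5 light libraries lay above all dark libraries and light replicate 2 lay at 23.0, below them all.

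The STEAP genes were lower on average in the dark phase, and neither passed the FDR. STEAP1, which lacks the cofactor-binding domain of its relatives, ranged from 88.2 to 121 scaled TPM in the light phase, with a median of 101, and from 74.2 to 105 in the dark phase, with a median of 88.0. The phases overlapped, and light replicate 6 was the highest of all libraries. Means were 101 ± 11.3 (SD, n = 6) and 88.9 ± 11.3 (SD, n = 6). The log2 fold change was -0.19 (SE 0.09; limma, unadjusted p = 0.0496, FDR = 0.161; exact permutation test, p = 0.0779).

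STEAP2 ranged from 52.9 to 66.5 scaled TPM in the light phase, with a median of 59.0, and from 50.2 to 58.1 in the dark phase, with a median of 56.2. In the light phase 4 libraries lay above all dark libraries. Means were 59.1 ± 4.38 (SD, n = 6) and 55.1 ± 2.93 (SD, n = 6). The log2 fold change was -0.10 (SE 0.05; limma, FDR = 0.223; exact permutation test, p = 0.0996). The 95% interval ran from -0.21 to 0.01.

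STEAP1 and STEAP2 varied together between the rats of the light phase. There the order of the 6 libraries was the same for both genes, with a Pearson r of 0.970 and a Spearman rho of 1.0 (exact permutation test, p = 0.00278 for each, adjusted p = 0.0222 over 8 relations). Without the 2 libraries farthest from the median of STEAP1 the r was 0.988. In the dark phase r was 0.803 (exact permutation test, p = 0.0472, adjusted p = 0.189) and rho was 0.886 (exact permutation test, p = 0.0333, adjusted p = 0.133), and r was 0.810 without the 2 farthest libraries. The dark-phase relation did not pass the adjustment, and a difference between the phases in it was not tested.

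**Figure D3:**
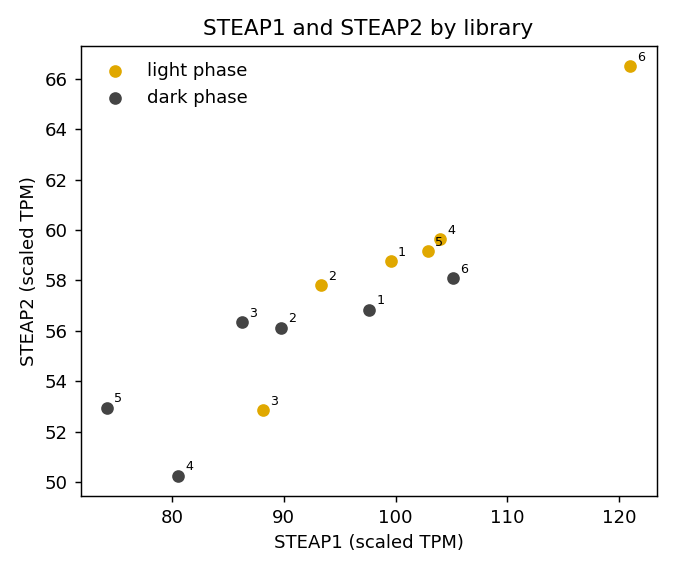
Scaled TPM of STEAP1 against STEAP2, 1 point per library with its replicate number, light phase in yellow and dark phase in grey, on axes that do not start at 0. The points follow a common upward course, with Pearson r of 0.970 in the light phase against 0.803 in the dark phase.

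STEAP1 exceeded STEAP2 by 1.62 to 1.82 times in the light phase, with a median of 1.72, and by 1.40 to 1.81 times in the dark phase, with a median of 1.60. The mean ratios were 1.71 ± 0.0706 (SD, n = 6) and 1.61 ± 0.143 (SD, n = 6). The log2 difference of -0.09 (SE 0.06) was within the spread between rats (exact permutation test, p = 0.139). With each library left out in turn it ran from -0.13 to -0.054 (exact permutation tests, p from 0.0346 to 0.277). The lowest p was without dark replicate 6, the dark library with the highest ratio, and no other omission gave a p below 0.05.

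Neither FTH1 with FTL1 nor TF with FTH1 showed a relation that passed. FTH1 and FTL1 had an r of 0.02 and a rho of 0.371 in the light phase (exact permutation test, p = 0.897 and p = 0.497) and an r of 0.716 and a rho of 0.6 in the dark phase (exact permutation test, p = 0.15 and p = 0.242). Leaving out the 2 libraries farthest from the FTH1 median gave an r of -0.85 in the light phase against 0.926 in the dark phase, so the light-phase value rested on few libraries. TF and FTH1 had an r of 0.06 in the light phase against 0.27 in the dark phase (exact permutation test, p = 0.908 and p = 0.656). Without the 2 libraries farthest from the TF median these became 0.740 and -0.19, so they too rested on few libraries.

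SLC11A2, the least abundant of the 6, ranged from 32.6 to 37.1 scaled TPM in the light phase, with a median of 35.1, and from 30.8 to 36.3 in the dark phase, with a median of 34.1. The phases overlapped. Means were 35.3 ± 1.61 (SD, n = 6) and 33.6 ± 2.12 (SD, n = 6), with a log2 fold change of -0.07 (SE 0.05), given without a test.

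As a description of which transcripts varied alike between rats, the phase means were subtracted and Pearson r was taken over the 12 libraries against 3069 genes with a symbol and at least 10 TPM. All these values share the libraries and their scaling. Among the 6 genes themselves, STEAP1 and STEAP2 were the closest pair with 0.870, and TF and FTL1 followed with 0.763. SLC11A2 and STEAP1 had 0.664. The ferritin chains had only 0.301 over all libraries and 0.770 without light replicate 2, and FTL1 and SLC11A2 went from -0.03 to 0.565 when it was left out.

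The genes most like each member differed from gene to gene. Their values are among the highest of 3069 for each member and are given over all 12 libraries only. Whether chance would give values as high was not tested. TF was closest to MYO10 (0.866), PTGDS (0.860), the prostaglandin D synthase of cerebrospinal fluid, and RGS3 (0.826). FTH1 was closest to ATP5MF (0.929), a subunit of mitochondrial ATP synthase, KMT2D (0.910) and the proteasome subunit PSMB4 (0.908). FTL1 was closest to the transcription factor CEBPB (0.940), RACK1 (0.892) and the actin-capping subunit CAPZB (0.875). Among the genes nearest SLC11A2 were FKBP15 (0.911) and TMTC1 (0.877). STEAP1 was closest to FAM131C (0.921), MAT2B (0.875) and CDS1 (0.871), and STEAP2 to TOR1AIP1 (0.870), STEAP1 (0.870) and the sulfate transporter SLC13A4 (0.826).

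The wider lists of iron, heme, copper and zinc genes held 109 genes beside the members. Of these 39 had a pairing, and 27 were paired in the level-ranked table and could be counted. The light-phase cut of that table favours genes higher in the light phase. Of the 27, 0 rose and 4 fell in the dark phase (limma, FDR below 0.05), or 14.8%, where 9.06% of the level-ranked table rose and 14.6% fell. At an unadjusted p below 0.05 there were 7 of the 27, where 30.8% of all tested genes and 38.4% of the level-ranked table passed in limma. With TPM left unscaled, 2 of the 27 rose (SLC22A17 and SCARA5) and 3 fell. The median log2 fold change of the 27 was -0.05, beside -0.04 over the level-ranked table.

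Of the counted genes of iron uptake, 0 of 3 were called, where 23.6% of the level-ranked table was. The log2 fold changes of all 3 were above 0, where 62.2% of the level-ranked table lay below 0. A shared direction of 3 genes was not tested. SLC22A17, a receptor for iron-carrying lipocalin, was the most abundant of them with 1529 ± 139 (SD, n = 6) scaled TPM in the light phase against 1672 ± 70.2 (SD, n = 6) in the dark phase, and its log2 fold change was 0.13 (limma, FDR = 0.145). SCARA5, a scavenger receptor that binds ferritin, had 54.1 ± 6.75 and 64.7 ± 8.18 (log2 fold change 0.26; limma, FDR = 0.0749). SNX3, which sorts the transferrin receptor back to the surface, stood at 0.13 on the log2 scale (limma, FDR = 0.211). With TPM left unscaled SLC22A17 and SCARA5 passed (limma, FDR = 0.0429 and 0.0448). SCARA5 also passed without light replicate 3 and with a replicate block (limma, FDR = 0.0413 and 0.0270), and SNX3 without dark replicate 3 (limma, FDR = 0.0308). The iron chaperone PCBP2 was the single counted gene of its list, at 115 ± 4.92 and 123 ± 7.12 (log2 fold change 0.11, limma, FDR = 0.117), and passed without dark replicate 3 (limma, FDR = 0.0311). Of the 22 alternatives, 19 gave no call for SCARA5, and 21 gave none for each of SLC22A17, SNX3 and PCBP2. SCARA5 and PCBP2 were also among the genes that the authors selected on the difference between phases with a count-based test.

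In the sensing list 0 of 3 counted genes were called, where 23.6% of the level-ranked table was. HFE, which acts with the transferrin receptors in sensing iron, was the most abundant of them and its log2 fold change was -0.05 (limma, FDR = 0.586), and BMP6, a signal for hepcidin, was the least abundant with -0.07. FBXL5, which marks iron regulatory proteins for breakdown when iron is plentiful, had 0.04. None of the 7 counted genes of mitochondrial iron-sulfur assembly was called, beside the same 23.6%. All 7 lay below 0, between -0.11 and -0.04 with a median of -0.07, where 62.2% of the level-ranked table lay below 0. With the library's FPKM to TPM ratio as a model term 6 of the 7 lay above 0, and only NFS1 stayed below at -0.02. This ratio differs between the phases with little overlap, so that model can hardly tell it apart from phase. ISCA1 passed without light replicate 2 (log2 fold change -0.10; limma, FDR = 0.0479). The most abundant was CISD1, an iron-sulfur protein of the outer membrane, with means of 224 and 217 scaled TPM, and GLRX5 was the least abundant with 71.5 and 66.7.

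Of the 4 counted heme genes 2 fell in the dark phase and passed the FDR, where 14.6% of the level-ranked table did. UROD, an enzyme of heme synthesis, fell from 84.3 ± 2.44 to 73.7 ± 2.60 scaled TPM (SD, n = 6 each), -0.19 on the log2 scale (SE 0.03; limma, FDR = 0.00157). Its phases did not overlap, with light libraries from 81.2 to 87.6 and dark libraries from 71.4 to 78.5, which was the case for 8.86% of all tested genes and 12.4% of the level-ranked table. SLC48A1, which moves heme out of lysosomes, fell from 69.1 ± 6.92 to 59.7 ± 3.10 with overlap (log2 fold change -0.21, SE 0.06; limma, FDR = 0.0363). That call was lost without light replicate 2, 4 or 6 or dark replicate 1, 2, 3 or 4, with FDR from 0.0548 to 0.0749 in limma. PGRMC1, a heme-binding membrane protein and the most abundant of the list, had 377 and 379 scaled TPM, and TMEM14C, which carries heme precursors in mitochondria, had -0.10 on the log2 scale (limma, FDR = 0.229).

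Among copper genes 0 of 4 were called, where 23.6% of the level-ranked table was. The copper importer SLC31A1 had 479 ± 67.2 scaled TPM in the light phase against 475 ± 30.8 in the dark phase (limma, FDR = 0.998). The least abundant was CCS, the copper chaperone of superoxide dismutase, with a log2 fold change of -0.04. ATOX1, a chaperone that hands copper to export pumps, had 0.23 with a wide spread between rats (limma, FDR = 0.478).

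Of the 3 counted zinc and manganese transporters 1 fell in the dark phase and passed the FDR, where 14.6% of the level-ranked table did. SLC39A7, which releases zinc from the endoplasmic reticulum, had 108 ± 7.65 scaled TPM in the light phase against 97.0 ± 4.18 in the dark phase (log2 fold change -0.15, SE 0.05; limma, FDR = 0.0421). The call was lost without any 1 of light replicates 3, 4, 5 and 6 and dark replicates 2, 3, 4, 5 and 6, with FDR from 0.0607 to 0.0888 in limma. SLC39A12, a zinc importer, had 96.5 ± 21.2 and 76.7 ± 37.9, with 1 dark library at 8.13 (limma, FDR = 0.434), and SLC30A9 was the least abundant with a log2 fold change of -0.05.

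The largest change in the wider lists was in MT1, a metallothionein, one of the small proteins that bind zinc and copper. It fell from 72.3 ± 23.0 scaled TPM in the light phase, with a range of 38.9 to 99.7, to 38.0 ± 6.04 in the dark phase, with a range of 31.8 to 46.1 (log2 fold change -0.86, SE 0.20; limma, FDR = 0.0109). Light replicate 3 lay inside the dark range and the other 5 light libraries above it. MT1 was counted through its light-phase mean, and its dark-phase mean lay below 51 TPM, the lowest light-phase mean of the level-ranked table. A gene with these levels exchanged between the phases would not have been counted. MT3, the metallothionein first known from brain, had 247 ± 42.1 and 278 ± 43.7 (log2 fold change 0.18; limma, FDR = 0.360). Metallothionein genes are short and alike, and reads shared between them can be divided uncertainly.

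**Figure D4:**
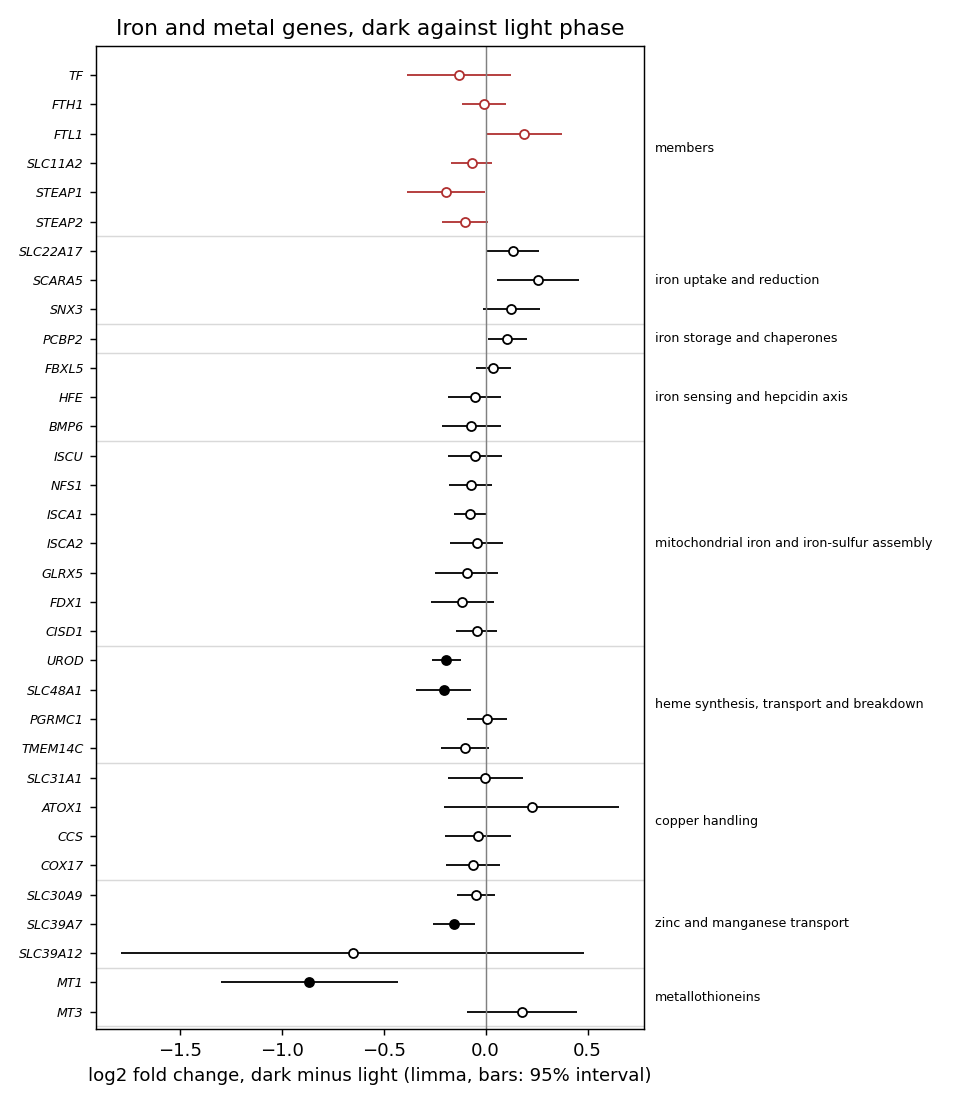
Log2 fold change, dark minus light, with 95% intervals from limma over 12 libraries, for the 6 members in red and the 27 counted genes of the wider lists in black, grouped by list. Filled points passed an FDR of 0.05, which were UROD, SLC48A1, SLC39A7 and MT1, all below 0, and no member is filled. The SLC11A2 interval is a description only.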

How the data were processed

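Choroid plexus RNA of 12 rats was sequenced as paired reads, 1 library per rat. The authors aligned the reads to Rnor_6.0 with STAR 2.7.9a and quantified 32883 genes with RSEM 1.3.3. TPM values were used as deposited by the authors before scaling. The deposited FPKM values are a constant multiple of TPM within a library, and only their ratio to TPM was used. That ratio was 0.953 to 0.987 in the light phase and 0.934 to 0.960 in the dark phase. Depth in reads is not given by these units.

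TPM was scaled by a trimmed mean of ratios (30% of ratios and 5% of levels trimmed) and transformed as log2(scaled TPM + 0.5), which understates changes of low genes. The 12511 genes whose mean reached 1 TPM, all 6 members with an identifier among them, were fitted with limma 3.58.1 in R 4.3.3 (phase alone, variance trend, Benjamini-Hochberg FDR 0.05). Exact permutation tests were two-sided, with 0.00216 as the smallest p for 6 against 6. P-values measure the spread between these rats. No pair of libraries held identical values.

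Symbols came only from the study's gene tables, of which 3690 pairings were held. Columns of the authors' own comparisons in these tables were not used. The members, the wider lists and the tests were chosen with earlier results of these data known. Named genes were all members, every called gene of a list, the most and least abundant of each list, and the 3 genes most like each member. Values of 2 genes are not reported here. SNX3, FBXL5, ISCA1, NFS1, FDX1, TMEM14C, ATOX1, SLC39A12 and the genes given without a test in the closing section fall outside this rule and were named after their values were seen. Alternatives were other scalings, pseudocounts and filters, a replicate block, library weights, a robust variance, the library's FPKM to TPM ratio added to the model and leaving out each library. The fit was tested on simulated data.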

Additional observations from a re-analysis of the deposited data

Results flagged for a closer look

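Light replicate 2 stood apart in the ratio of FTH1 to FTL1. Its ratio was 23.0, and the other 5 light libraries lay between 30.6 and 34.1. Of 24 groups checked for a single distant library, 1 was marked, and chance marks about 1 in 20. The same library held the highest haemoglobin sum of the 12, 28451 scaled TPM, and the lowest TTR share, 25.4%. The part of either in the ratio was not tested.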

How the results depend on the processing

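The direction and call of TF, STEAP1 and STEAP2 were the same under all 22 alternatives, with log2 fold changes from -0.31 to -0.07, -0.24 to -0.14 and -0.13 to -0.06. FTH1 ranged from -0.03 to 0.09 and passed the FDR under 0 of 22. The number of members called was 0, and 1 with a replicate block, 1 with library weights and 0 to 1 with each library left out, the 1 being FTL1 each time (limma, FDR = 0.0350 with the block, 0.0430 with weights and 0.0180 without light replicate 2). With the FPKM to TPM ratio added as a covariate FTL1 had 0.10 (limma, SE 0.14, against 0.09 without it, FDR = 0.758). The ratio overlaps little between the phases, so this fit can hardly tell it apart from phase. Genes called numbered 2219, 343 with that covariate, and 1704 to 2278 with each library left out. The 4 calls of the wider lists became 0 with the covariate, 2 with no filter on level, 5 with unscaled TPM, 3 with the replicate block and 2 to 4 with each library left out, with 2 without light replicate 4 or 6 or dark replicate 2 or 4. With the covariate, 6 of 7 genes of iron-sulfur assembly turned from below to above 0, up to 0.15 (FDX1). The log2 difference of the FTH1 to FTL1 ratio was -0.28 to -0.17 and that of the STEAP1 to STEAP2 ratio -0.13 to -0.054 with each library left out. The causes were not tested.

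Replicate numbers are shared by the phases, but they did not pair the samples. Same-numbered libraries had correlations of their deviations from -0.11 to 0.05, and no light library correlated best with its own number. For the ratios, exact sign-flip tests of the differences between same-numbered libraries gave p = 0.0938 (ferritin) and p = 0.125 (STEAP). These differ from the permutation tests between groups used above. With the replicate block 1591 genes were called in limma. In that fit SLC48A1 and SLC39A7 were not called (limma, FDR = 0.0628 and 0.101), while SCARA5, higher in the dark phase, was (limma, FDR = 0.0270).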

Other observations

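Further genes of metal handling had a symbol only through tables selected on the difference between phases, so their differences are given as values with no test. SLC39A14, which imports iron not bound to transferrin, had 10.1 ± 0.594 scaled TPM in the light phase against 12.9 ± 0.953 in the dark phase (SD, n = 6 each), with no overlap. ACO1, the iron regulatory protein that binds ferritin transcripts when iron is scarce, had 26.4 ± 1.03 and 23.1 ± 0.981, with no overlap. Phases did not overlap for 8.86% of all tested genes and 12.4% of the level-ranked table. Selection on the difference favours such genes, so the separation is a description only. SLC25A37, the mitochondrial iron importer, had 15.3 ± 1.64 and 12.9 ± 0.905, and ABCB6, a porphyrin transporter, had 18.1 ± 1.38 and 15.4 ± 1.19. Both overlapped between the phases.

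The copper pump ATP7A had 11.4 ± 0.816 in the light phase against 13.6 ± 1.25 in the dark phase. The zinc exporter SLC30A1, a gene that zinc induces through MTF1, had 28.6 ± 1.73 and 24.7 ± 2.15. Log2 differences of the other 6 such genes were 0.48 for SLC30A3, 0.23 for SLC39A10, -0.11 for SLC39A13, 0.23 for FLVCR2, 0.17 for PCBP4 and 0.08 for NEO1.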
